A study of Mus musculus with 9 samples.

Results

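Transcript isoform usage was compared between splenic B cells of 6 leukemic transgenic mice and 3 wildtype mice. The measurement was the share of each annotated transcript in the summed TPM of its gene, where TPM is an abundance scaled for transcript length and library depth. A gene was kept where it had at least 2 annotated transcripts and at least 50 estimated reads in every library, and immunoglobulin segments were left out. This rule kept 7978 of 54123 genes, with 54243 of 139864 transcripts. It uses gene totals and no difference between groups.

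All mice were of the C57/BL6NTac strain and each gave 1 library. The Eµ-MTCP1 mice (Z2551, Z2606 and Z2641) carried the hMTCP1 transgene and the Eµ-TCL1 mice (B4376, B4437 and C1594) the hTCL1 transgene, while the wildtype mice (Z2754, Z2755 and Z2785) carried none. In Eµ-MTCP1 mice a VH promoter with the IgH-Eµ enhancer drives human MTCP1 in immature and mature B cells. The Eµ-MTCP1 mice came from founder line Z36, whose transgene the study located in an intron of the mouse gene Fam168a, so that every Eµ-MTCP1 library shares that insertion. B cells were taken from spleen with a pan B cell isolation kit, no agent was given, and the ages of the sequenced mice are not in the labels. The labels were checked on a second reference with human sequences. The Eµ-TCL1 libraries had 26439 to 47439 reads on these sequences and the Eµ-MTCP1 libraries 1754 to 4843, against 6 to 14 in wildtype libraries.

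Most mammalian genes give several transcripts, through alternative promoters, alternative splicing and alternative polyadenylation. A change of transcript can alter the protein, or only the untranslated ends of the mRNA. Transcripts that keep an intron, or that carry a premature stop codon and are open to nonsense-mediated decay, make little or no full protein. In human chronic lymphocytic leukemia the splicing factor SF3B1 is a recurrent mutation target, and in B cells isoforms of surface and signaling proteins such as CD45 are classical examples of regulated splicing.

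Each library had 11438681 to 14070588 reads assigned to transcripts. The B cell markers Cd79a, Cd79b, Ms4a1, Pax5 and Cd22 were present in all 9 libraries, with a summed TPM of 4231 to 4777 in wildtype and 3400 to 4776 in leukemia. Most of this sum was Cd79a and Cd79b. Pax5 lay at 36.7 to 52.9 in wildtype and 18.6 to 31.4 in leukemia, and Cd22 at 318 to 413 and 136 to 270, so that these 2 markers did not overlap between the groups. The 8 myeloid markers summed to a TPM of 1503, 5933 and 1514 in Z2754, Z2755 and Z2785 and to 150 to 3226 in leukemia. These ranges overlapped, with 4 of the 6 leukemias below all wildtype libraries and Z2755 above all others, and none of the 8 was at 0 in every library. The other marker sums overlapped too, at 47.8 to 60.2 in wildtype and 27.2 to 113 in leukemia for T cells, 11.2 to 28 and 0.0962 to 26.9 for NK cells, 112 to 417 and 50.9 to 614 for erythroid cells, 811 to 1257 and 77.9 to 2395 for plasma cells and 41.3 to 58.7 and 29.4 to 45.2 for stroma. The part of all these markers in any result was not tested. In bulk RNA, fewer cells of a type and less RNA per cell cannot be told apart. The library of wildtype mouse Z2755 was run on another lane than the other 8. Within a group, the share of a tested transcript had a median standard deviation (SD) of 4.94 percentage points in wildtype, 5.52 in Eµ-MTCP1 and 4.47 in Eµ-TCL1.

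In most genes the leading transcript did not change. The most abundant transcript was the same in all 9 libraries in 5062 genes (63.4%). It differed between the mean of the leukemias and that of wildtype in 759 genes (9.51%), but in 16 genes (0.201%) it was the same within every library of a group and different between the groups.

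For the test, 18991 transcripts of 6193 genes were fitted with edgeR's diffSpliceDGE. They had at least 10 reads on average and a share of at least 5%, taken as the mean of the wildtype mean and the leukemia mean. With this equal weight of the groups, 211 tested transcripts had a plain mean under 5% over the 9 libraries. A transcript passed where its adjusted p was under 0.05 and its share differed by at least 10 percentage points. In the leukemias 47 transcripts (0.247%) of 44 genes (0.71%) passed, 21 with a higher share (0.111%) and 26 with a lower share (0.137%). At an unadjusted p under 0.05 there were 579 transcripts (3.05%). Of the 47, 9 were listed at 0 in all wildtype libraries and 7 in all leukemia libraries, so that they reached the minimum share through the other group alone. A plain mean over the 9 libraries was under 5% in 7 of the 47, among them Mga-202, Cep250-202 and Prpf3-207.

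This test assumes 1 spread for all transcripts of a gene and its calls on simulated data held a larger share of false calls than the 0.05 its adjusted p is meant to allow, and a larger one than those of limma and of a spread per transcript. The count of 47 and the edgeR adjusted p-values given below are therefore not controlled at 0.05. The counts of 3 other models are given beside it, of which DESeq2 was not run on the simulated data. With a spread estimated for each transcript 23 transcripts (0.121%) passed (18 with a higher share), of which 9 were among the 47. With limma on log2 TPM ratios 44 (0.232%) passed (30 higher), 17 of them among the 47, and with DESeq2 176 (0.927%) passed (99 higher), 35 of them among the 47. All 4 models called 9 transcripts of 8 genes: Pik3r1-201, Pigb-202, Ppil1-203, Cdc45-202, Sh3tc1-202, Sp100-208, Sp110-202, C130026I21Rik-202 and C130026I21Rik-205. Of these, Pigb-202, Cdc45-202 and Sh3tc1-202 reached the minimum share through the leukemias alone, so that their calls are no support beyond their levels. Among the 9 fits without 1 library C130026I21Rik-202 passed in 4 and Sh3tc1-202 in 1, and the other 7 transcripts passed in all. At least 3 models called 27 transcripts of 21 genes. In all 27 the 6 leukemia libraries lay apart from the 3 wildtype libraries, and 20 of the 27 had a higher share in the leukemias. Among all tested transcripts, the groups lay apart in 942 (4.96%), and in 507 (2.67%) they also differed by at least 10 points.

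**Figure D1:**
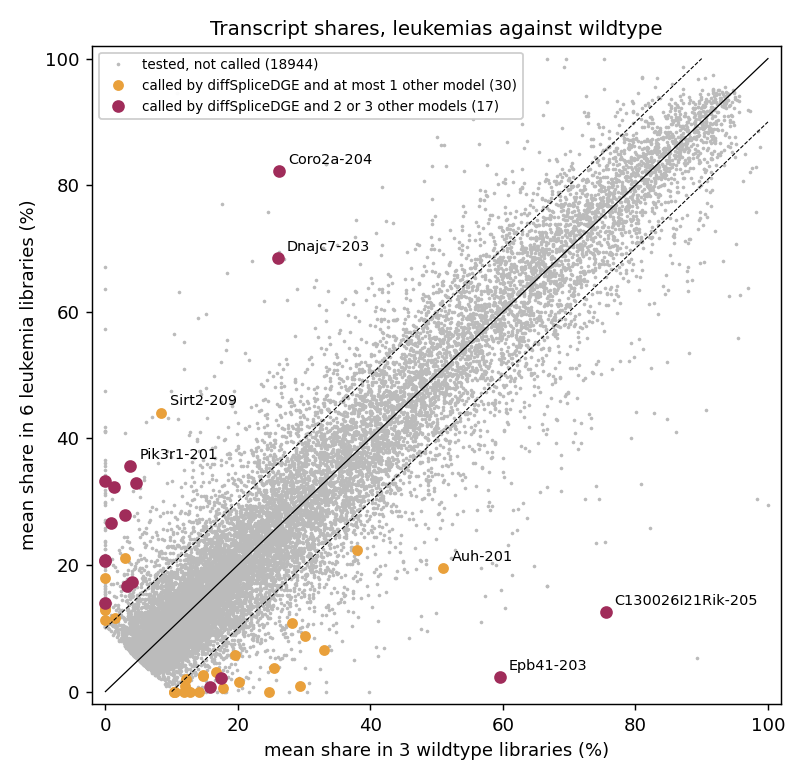
Each point is a tested transcript, with its mean share of the TPM of its gene over 3 wildtype libraries (x axis, %) and over 6 leukemia libraries (y axis, %); the solid line marks equal shares and the dashed lines a difference of 10 points. Most of the 18991 transcripts lie along the line of equal shares, while Pik3r1-201, Dnajc7-203 and Coro2a-204 lie far above it and C130026I21Rik-205, Epb41-203 and Auh-201 far below.

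Pik3r1 encodes the regulatory subunits of class IA phosphoinositide 3-kinase, which binds phosphorylated B cell co-receptors and controls AKT signaling. The gene lies on chr13:101680563-101768217 (GRCm38, minus strand). The long form, p85α, starts at a distal promoter, and shorter forms that lack the amino-terminal domains start at internal promoters. Pik3r1-201 is such a short form: it starts inside the gene at position 101692630, has 2923 bases in 10 exons and codes for 454 residues. Its first 30 bases, which mark the internal start, are shown here because its share passed in all 12 other settings and in all 9 fits without 1 library.
Pik3r1-201 start, chr13:101692601-101692630, minus strand: agagtaataaagagagacttagagagcaca
The share of Pik3r1-201 was 4.44% in Z2754, 3.71% in Z2755 and 3.13% in Z2785. In Eµ-MTCP1 it was 40.0%, 40.6% and 29.7% in Z2551, Z2606 and Z2641, and in Eµ-TCL1 36.7%, 31.5% and 35.0% in B4376, B4437 and C1594. The groups did not overlap, and both models lay at the same level.

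The share rose from 3.76% ± 0.656 (SD, n = 3) to 35.6% ± 4.43 (SD, n = 6), a difference of 31.8 points. Against the whole gene, the log2 fold change of the transcript was 3.42 (edgeR adjusted p = 8.66e-07). This rested on 20 to 43 reads of the transcript in wildtype libraries and 257 to 501 in leukemias. The summed TPM of Pik3r1 was 25.8 ± 5.76 in wildtype and 30.1 ± 5.0 in leukemia, with overlapping ranges. Pik3r1-206, a retained-intron transcript at the distal start, led in every wildtype library with a mean of 33.7% ± 3.02 and was at 18.2% ± 4.09 in the leukemias, which did not pass (edgeR adjusted p = 1). On the second reference, which holds coding sequences only, Pik3r1-201 was at 0% to 0.592% in wildtype and 25.8% to 42.9% in leukemia (edgeR adjusted p = 0.000482). There the other main coding form, Pik3r1-202, had 93.0% to 100% in wildtype and 36.0% to 67.8% in leukemia.

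Sirt2 encodes an NAD-dependent deacetylase of cytoplasm and nucleus whose best known substrate is α-tubulin. The gene lies on chr7:28766735-28788661 (GRCm38, plus strand). Its 3 main transcripts share the first exon, which ends at position 28766867, and join it to different second exons. Sirt2-201 continues at position 28767632 and codes for 389 residues, Sirt2-202 at 28771811 and codes for 352, and Sirt2-209 at 28776858 and codes for 319. The junctions are shown because each occurs in no other transcript of the gene, with the end of the first exon in lower case and the start of the next exon in capitals.
Sirt2-201: tggccgagccggaccCCTCTGACCCTCTGG
Sirt2-202: tggccgagccggaccGATTCAGACTCGGAC
Sirt2-209: tggccgagccggaccGCCGCAAGGTCATCT
The short form Sirt2-209 had 22.0%, 0.87% and 2.33% of the TPM of the gene in Z2754, Z2755 and Z2785. In the 6 leukemias its share had a lowest value of 36.5%, a median of 42.5% and a highest value of 56.2%. All leukemias were above all wildtype libraries, of which Z2754 stood apart from the other 2.

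The share of Sirt2-209 rose by 35.7 points (edgeR adjusted p = 0.00806; DESeq2 also called it, limma and the spread per transcript did not). Without Z2785 the difference was 32.6 points and the test was not passed. Sirt2-201 went the other way, from 39.2%, 23.1% and 39.0% in wildtype to between 7.07% and 12.5% in the leukemias. The groups did not overlap, and 3 models called it, but not diffSpliceDGE (adjusted p = 0.9). Sirt2-202 had 44.0% ± 18.4 in wildtype and 19.0% ± 6.66 in leukemia, with overlapping libraries. The summed TPM of Sirt2 was 40.9 ± 6.31 in wildtype and 127 ± 38.4 in leukemia. On the coding-sequence reference Sirt2-209 held 26.5%, 0% and 0% in wildtype and 46.8% to 77.5% in leukemia, and the test was not passed (edgeR adjusted p = 0.451).

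**Figure D2:**
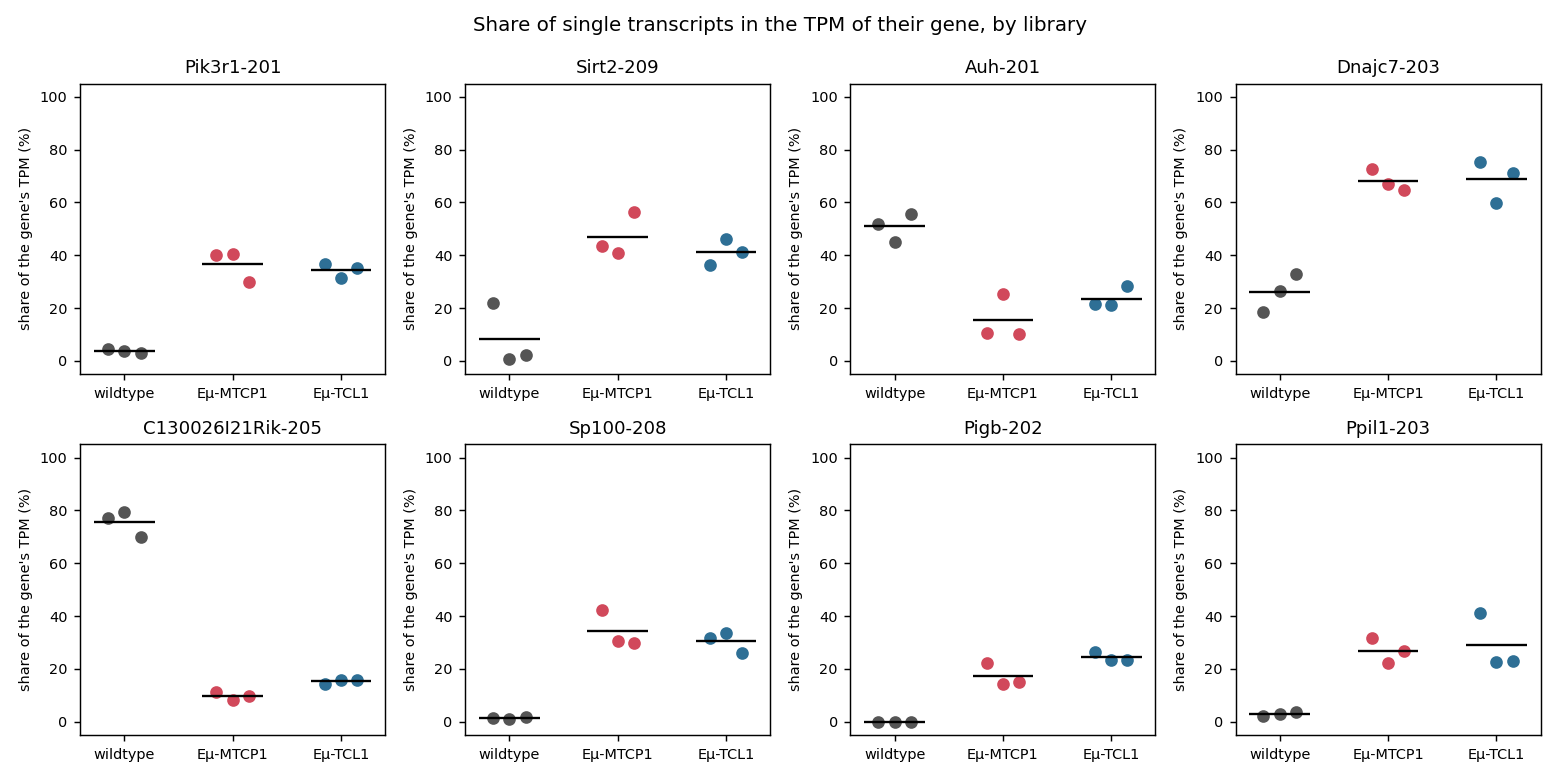
Share of 8 transcripts in the TPM of their gene (y axis, %), with 1 point per library, 3 libraries each in wildtype, Eµ-MTCP1 and Eµ-TCL1, and a line at the group mean. In each panel the 6 leukemia points lie on 1 side of the 3 wildtype points: Auh-201 and C130026I21Rik-205 are lower and the other 6 transcripts are higher, with Pik3r1-201 at 29.7% to 40.6% against 3.13% to 4.44%.

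Auh encodes a mitochondrial enoyl-CoA hydratase of leucine breakdown that also binds AU-rich RNA. Its full-length transcript Auh-201 (314 residues, chr13) had 52.0%, 45.2% and 55.6% in Z2754, Z2755 and Z2785 and 10.1% to 28.2% in the leukemias, with a median of 21.2%. The groups lay apart, and the share fell by 31.4 points. Against the whole gene, the log2 fold change of Auh-201 was -1.76 (edgeR adjusted p = 0.00454). DESeq2 called it, while limma and the spread per transcript did not. The summed TPM of the gene went from 27.2 ± 0.287 to 136 ± 28.9. The reads of Auh-201 itself were 173 to 214 in wildtype and 243 to 468 in leukemia, so that its lower share came with more reads. The fragment Auh-209, a processed transcript of 492 bases, had 8.7% ± 1.72 in wildtype and 28.3% ± 4.4 in leukemia, with groups that lay apart. It did not pass with diffSpliceDGE (edgeR adjusted p = 1), while limma (adjusted p = 0.0373) and DESeq2 (adjusted p = 0.00607) called it. On the coding-sequence reference Auh-201 had 70.6% to 82.5% in wildtype and 21.1% to 47.7% in leukemia, which did not pass either (edgeR adjusted p = 1).

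In Dnajc7, Coro2a, Epb41 and Ccdc28b the form that led in the leukemias was a transcript with no annotated coding sequence. Dnajc7, a cochaperone of HSP70 and HSP90, had Dnajc7-203 as its leading transcript in leukemia, a 770-base product of the 3′ end of the gene. Its share was 18.6%, 26.3% and 33.1% in Z2754, Z2755 and Z2785 and 59.7% to 75.3% in the leukemias. It rose by 42.4 points (edgeR adjusted p = 0.000659; adjusted p = 0.0607 with a spread per transcript), while the coding Dnajc7-201 had 48.4% ± 5.73 and 20.7% ± 4.85. Coro2a, an actin-binding coronin, had the 642-base Coro2a-204 at 20.7% to 35.5% in wildtype and 58.6% to 93.1% in leukemia. The share rose by 55.9 points (edgeR adjusted p = 0.0103), on only 15 to 31 reads per wildtype library and 58 to 507 per leukemia library. The call was lost without Z2754 (54.1 points) and without Z2755 (53.2 points).

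Epb41 encodes protein 4.1R, which ties the spectrin cytoskeleton to the plasma membrane. Epb41-203, which codes for 804 residues, had 59.2%, 71.7% and 47.6% in Z2754, Z2755 and Z2785. In the leukemias it was at 0% in 4 libraries, 9.19% in Z2641 and 4.5% in B4437, and it fell by 57.2 points (edgeR adjusted p = 0.025), with the call kept in 3 of the 9 fits without 1 library. Epb41-215, which starts at another first exon and has no annotated coding sequence, had 15.7% to 18.8% in wildtype and 66.2% to 86.8% in leukemia, and the 3 other models called it. The level of the gene was lower in the leukemias, with a summed TPM of 11.4 ± 1.95 in wildtype and 3.17 ± 0.79 in leukemia. Cd86, a costimulatory ligand of CD28 on activated B cells, went from its processed transcript Cd86-203 (70.6% ± 3.13) to its coding transcript Cd86-201 (28.6% ± 3.95 to 48.9% ± 4.86) as the leading form, and diffSpliceDGE called neither. In C1594 Cd86-201 (42.7%) and Cd86-203 (42.6%) were nearly equal.

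Leading transcripts that stayed coding were exchanged in other genes. Acp5 encodes tartrate-resistant acid phosphatase, an enzyme of osteoclasts and macrophages. Acp5-201 and Acp5-204 have different first exons, which join the same second exon at position 22130129 of chr9 (minus strand), and code for the same 327 residues. The junctions show that only the untranslated start differs, with the first exon in lower case and the second exon, which opens with the start codon, in capitals.
Acp5-201: ggacccaccgccaagATGGATTCATGGGTG
Acp5-204: ccggaggggttggtgATGGATTCATGGGTG
Acp5-201 had 40.4%, 41.2% and 43.0% in Z2754, Z2755 and Z2785 and 60.5% to 75.0% in the leukemias, and Acp5-204 had 42.6% to 46.8% and 15.4% to 29.1%. Neither pair of ranges overlapped. For Acp5-201 the 3 other models passed (adjusted p = 0.00899 with a spread per transcript in edgeR, 0.0429 in limma) and diffSpliceDGE did not (adjusted p = 0.895). For the whole gene, the summed TPM was 166 ± 21.2 and 178 ± 50.4.

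Rtn4ip1, a mitochondrial oxidoreductase, had Rtn4ip1-202 at 10.4% ± 9.02 in wildtype and 56.5% ± 5.4 in leukemia (edgeR adjusted p = 0.0659; 18.8% to 42.7% and 68% to 85.5% on the coding-sequence reference, adjusted p = 1). Sh3bp2, an adaptor of SYK and B cell receptor signaling, had Sh3bp2-201 as the leading form in wildtype (45.5% ± 3.48) and Sh3bp2-202 in leukemia (48.4% ± 4.17), and diffSpliceDGE called neither. On the coding-sequence reference Sh3bp2-202 led in both groups, with 58.8% to 85% in wildtype and 53.2% to 97.8% in leukemia. The other genes among the 16 were Gm47071, C130026I21Rik, Rfxank, Nisch, Ccdc28b, Oxr1, Zfp106 and Ddx5. Of these Ddx5, an RNA helicase that works in splicing, had its decay-annotated Ddx5-208 at 36.5% ± 3.06 in wildtype and 46.6% ± 5.49 in leukemia.

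Tmbim4, a Golgi protein of the Bax inhibitor family, had the same leading transcript in both groups, at another level. Tmbim4-201 was at 50.4%, 50.6% and 50.9% in the 3 wildtype libraries and 80.9% to 92.5% in leukemia. On the coding-sequence reference the groups overlapped, at 87.3% to 92.6% and 85.2% to 94.1%. The minor form Tmbim4-207 fell by 15.4 points, from 17.5% ± 2.31 to 2.1% ± 0.916 (edgeR adjusted p = 0.006), and lost its call without any 1 of the wildtype libraries.

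**Figure D3:**
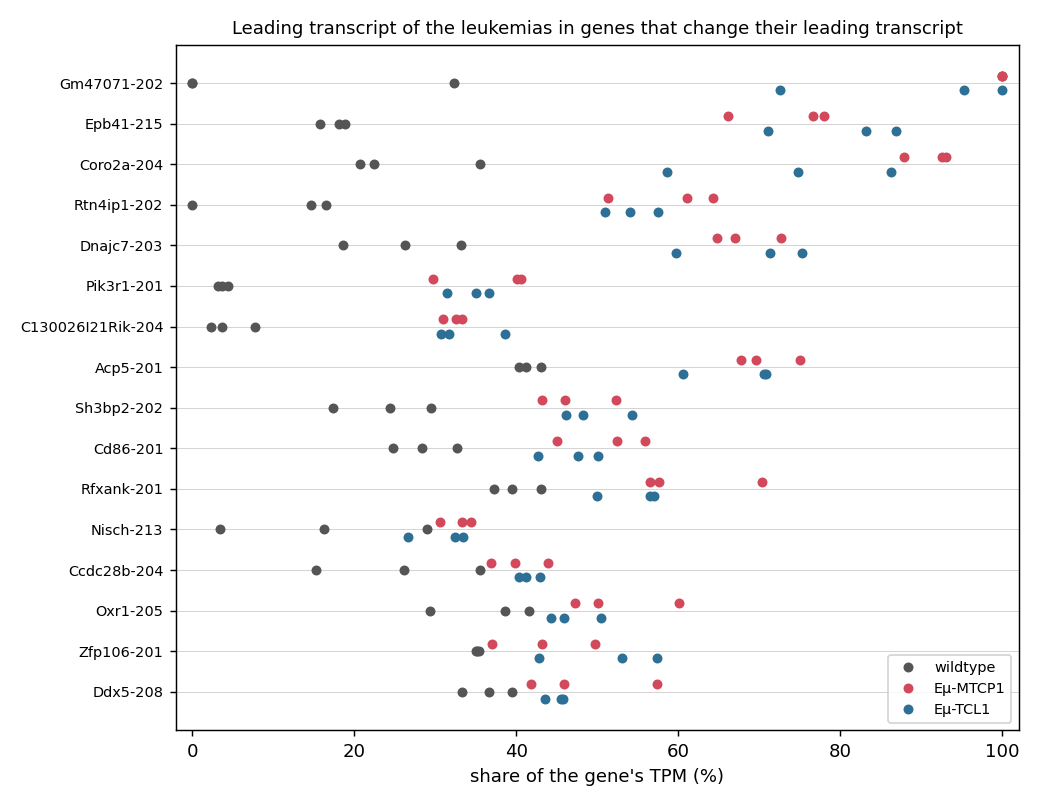
Share of the TPM of the gene (x axis, %) held by the transcript that leads in the leukemias, for the 16 genes whose leading transcript was the same within every library of a group and different between wildtype and leukemia, with 1 point per library. Wildtype points lie to the left of the Eµ-MTCP1 and Eµ-TCL1 points in rows such as Pik3r1-201, Dnajc7-203 and Acp5-201.

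Some transcripts were listed in leukemia libraries only. Among them, Pigb-202 and Cdc45-202 reached the minimum share through the leukemias alone, and their calls are no support beyond the levels given. Pigb, a mannosyltransferase that builds the GPI anchor of surface proteins, had Pigb-202 listed at 0% in all 3 wildtype libraries and at 14.3% to 26.5% in the leukemias, on 33 to 73 reads (edgeR adjusted p = 0.00392). Pigb-202 and Pigb-206 code for the same 542 residues and differ at the 3′ end. Cdc45 encodes a subunit of the replicative helicase. Cdc45-202, which codes for 520 residues instead of the 566 of Cdc45-201, was listed at 0% in wildtype and at 17.6% to 51.9% in leukemia (edgeR adjusted p = 0.00377), in a gene with as few as 82 reads in a library.

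Ppil1 is a peptidyl-prolyl isomerase of the spliceosome. Ppil1-203, annotated as a target of nonsense-mediated decay, had 2.23%, 3.0% and 3.58% in Z2754, Z2755 and Z2785 and 22.1% to 41.3% in the leukemias, and rose by 24.9 points (edgeR adjusted p = 0.000482). Ppil1 as a whole had a summed TPM of 49.5 ± 14.5 in wildtype and 104 ± 17.6 in leukemia. Neither Cdc45-202 nor Ppil1-203 met the minimum for a test on the coding-sequence reference, where Cdc45-202 was listed at 0% in every library but Z2641 (30.5%) and B4376 (17.9%), and Ppil1-203 at 0% in every library but B4437 (1.27%). The junctions that only these forms hold are given here for that reason, with the exon before the junction in lower case and the exon after it in capitals.
Cdc45-202, from 18810389 to 18807423 of chr16: gaacataaagagcagATCAAATTGCTTATT
Ppil1-203, from 29263872 to 29262172 of chr17: ctacctggagactagGTGTCATGTGAGGAC

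Slc44a2-201, of a choline transporter-like protein, was listed at 0% in wildtype. It had 4.93%, 10.9% and 0.618% in Z2551, Z2606 and Z2641 and 19.9%, 18.4% and 28.8% in B4376, B4437 and C1594 (edgeR adjusted p = 8.66e-07). Hipk1-201, of a nuclear kinase that acts on p53 and other factors, was listed at 0% in wildtype and 5.61% to 24.5% in leukemia (edgeR adjusted p = 5.05e-08), and codes for the same 1210 residues as Hipk1-203. Neither was called with a spread per transcript (edgeR adjusted p = 0.171 and 0.0716), and limma did not call Hipk1-201 (adjusted p = 0.174). Sh3tc1-202 was listed at 0% in wildtype and 9.15% to 32.0% in leukemia (edgeR adjusted p = 0.0369), but passed in only 1 of the 9 fits without 1 library. On the coding-sequence reference it was listed at 86% in B4376 and at 0% in every other library. Slc44a2-201, Hipk1-201 and Sh3tc1-202 reached the minimum share through the leukemias alone, and their calls are no support beyond the levels given.

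The largest difference among the 47 transcripts was in the Sp100 family of nuclear body proteins on chromosome 1, whose members are induced by interferon. C130026I21Rik-205 had 77.3%, 79.3% and 69.9% in Z2754, Z2755 and Z2785 and 8.29% to 15.9% in leukemia, and fell by 63.0 points (edgeR adjusted p = 1.58e-06). The retained-intron transcript Sp100-208 rose from 1.26% ± 0.32 to 32.3% ± 5.52 (edgeR adjusted p = 6.2e-09) and Sp110-202, also with a retained intron, from 4.08% ± 0.475 to 17.3% ± 3.73 (edgeR adjusted p = 0.00068). The summed TPM of C130026I21Rik was 92.7 ± 8.87 in wildtype and 605 ± 165 in leukemia, and that of Sp100 was 177 ± 26.8 and 129 ± 28.6. These genes have near-identical copies, so that the assignment of reads among them is uncertain: of the 31-base words of each transcript, 49.2% of C130026I21Rik-205, 64.3% of Sp100-208 and 20.4% of Sp110-202 also occur in other genes. For Fam129c-207, which rose by 10.2 points, all words (100%) also occur in Pgls. In Pik3r1-201 the portion was 0.421%, and in Sirt2-209, Auh-201, Dnajc7-203, Acp5-201, Pigb-202, Cdc45-202 and Ppil1-203 it was 0%.

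Several transcripts of the wildtype libraries were at or near 0% in leukemia. Nfatc1 encodes a calcium-regulated transcription factor of antigen receptor signaling, and Nfatc1-205 had 18.5%, 22.3% and 19.6% in Z2754, Z2755 and Z2785. It was at 0% in Z2551 and all Eµ-TCL1 libraries, 3.53% in Z2606 and 5.69% in Z2641, and fell by 18.6 points (edgeR adjusted p = 0.00076, not called by the 3 other models). On the coding-sequence reference Nfatc1-205 was listed at 0% in all 9 libraries, wildtype included, and Nfatc1-201 passed instead, with 23.1% to 26.5% in wildtype and 3.33% to 9.31% in leukemia (edgeR adjusted p = 0.000272). Cblb, a ubiquitin ligase that restrains receptor signaling, had Cblb-206 at 9.28% to 29.2% in wildtype and 0% in every leukemia but Z2641 (3.15%; edgeR adjusted p = 0.0153). It passed in 3 of the 9 fits without 1 library, and neither limma nor the spread per transcript called it (adjusted p = 0.0955 and 0.392, the latter with edgeR). Mga-202, of a MAX-binding repressor, had 5.63% to 18.6% in wildtype and was listed at 0% in all 6 leukemias. It reached the minimum share through the wildtype libraries alone, and its call is no support beyond these levels. Neither limma (adjusted p = 0.231) nor the spread per transcript (edgeR adjusted p = 0.127) called it. On the coding-sequence reference Mga-202 had 8.98% to 55.4% in wildtype and 6.54% to 9.82% in 4 of the 6 leukemias, so that the groups overlapped (edgeR adjusted p = 0.665). Cep250-202, of a centrosome linker protein, had 2.55% to 14.8% and was also listed at 0% in all 6, on the coding-sequence reference too. The same limit holds for it: it fell below the minimum share in 2 of the 9 fits without 1 library, and limma and the spread per transcript did not call it.

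The remaining named transcripts were smaller or less stable. Plec-206 rose by 18.1 points, Acbd5-204 fell by 21.7 points and Ufd1-202 fell by 10.2 points. On the coding-sequence reference wildtype and leukemia overlapped for Acbd5-204 (64.4% to 70.7% and 51% to 70.7%) and Ufd1-202 (41.9% to 77.1% and 48% to 80.4%). Plec-206 lay apart there, at 0% to 2.35% and 2.74% to 20.9%. Plec-206 passed in 2 of the 9 fits without 1 library and Ufd1-202 in 4 of 8, and Acbd5-204 and Ufd1-202 were called by no model but diffSpliceDGE. Rps6ka3-204, of a kinase of the ERK pathway, rose by 25.8 points, from between 0% and 2.66% to between 17.5% and 37.7% (edgeR adjusted p = 0.0364), and passed in 1 of 9 such fits. On the coding-sequence reference its libraries overlapped, with 0% to 100% in both groups. Fry-203 fell by 14.9 points, from between 13.5% and 17.2% to between 0% and 4.79% (edgeR adjusted p = 0.00544). Arid5b-203, Racgap1-211, Pigb-204, Sp140-205, A530032D15Rik-203 and C130026I21Rik-206 were called by the 3 other models and not by diffSpliceDGE. On the coding-sequence reference Arid5b-203 was listed at 0% in every library but C1594 (0.221%). There the groups overlapped for A530032D15Rik-203 and Pigb-204 and lay apart for Sp140-205 and C130026I21Rik-206.

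By annotated type, the 47 transcripts that passed comprised 35 protein-coding transcripts of 11615 tested, 4 with a retained intron of 4390, 4 targets of nonsense-mediated decay of 1255 and 4 processed transcripts of 1520. In each of the 44 genes the transcript that passed was compared with the one that moved most the other way. The first exon differed in 24 of 44 genes (54.5%), beside 45.8% of 5656 tested genes that had such a pair. The last exon differed in 27.3% beside 41.9%, and an internal exon in 61.4% beside 67.2%. In 31 genes both transcripts were coding, and 11 of these pairs (35.5%) had the same coding sequence, beside 21% of all coding pairs. In the 21 genes with a transcript called by at least 3 models the first exon differed in 61.9%, the last exon in 38.1% and an internal exon in 76.2%, and 2 of 11 coding pairs (18.2%) had the same coding sequence. These shares were not tested.

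Gene lists were described by their counts, beside those over all 6193 tested genes. Over all genes 0.71% had a transcript that passed with diffSpliceDGE, 0.307% (19) with a spread per transcript, 0.517% (32) with limma and 1.92% (119) with DESeq2, and 8.46% (524) had a transcript at an unadjusted p under 0.05. Of 31 tested B cell isoform genes none passed with diffSpliceDGE. At an unadjusted p under 0.05 there were 11, and limma called 1 (Fam168a) and DESeq2 called 2 (Picalm and Tnfrsf13b). Fam168a holds the transgene in founder line Z36, and Fam168a-207 was listed in the Eµ-MTCP1 libraries only, as given below. Syk-201, of the kinase below the B cell receptor, had 22.1% to 23.5% in wildtype and 28.9% to 53.6% in leukemia and was not called by any of the 4 models. Tnfrsf13b-205, a processed transcript of the gene for the receptor TACI, had 35.5% to 40.5% in wildtype and 8.39% to 22.3% in leukemia (DESeq2 adjusted p = 0.00535; edgeR adjusted p = 0.664). Cd44-207 had 30% to 49.1% and 19.3% to 26.2%, and Picalm-213 0% to 4.1% and 5.87% to 24.3% (DESeq2 adjusted p = 0.034). Ptprc-207, of CD45, had 40.9% to 53.3% and 35.6% to 47.2%, Fcgr2b-202, of the inhibitory Fc receptor, 52.5% to 56.0% and 52.1% to 59.9%, and Cd79b-201 11.8% to 12.8% and 10.1% to 12%, so that these overlapped.

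Among 38 tested genes of B cell receptor signaling 3 had a transcript that passed (Pik3r1, Nfatc1 and Cblb). Of 28 genes of PI3K, AKT and mTOR signaling 1 did (Pik3r1), and of 37 orthologs of chronic lymphocytic leukemia drivers 1 did (Mga). Genes with a transcript at an unadjusted p under 0.05 numbered 7, 2 and 4 in these 3 lists. The spread per transcript called 2 genes of B cell receptor signaling (Pik3r1 and Sh3bp2), limma 1 and DESeq2 4. In PI3K, AKT and mTOR signaling each of the 3 called 1 gene, and among driver orthologs DESeq2 called 3 and the other 2 called none. Of 51 spliceosome genes and splicing regulators 1 did, Prpf3, on account of a single library: Prpf3-207 was at 34.9% in Z2754, 0.496% in Z2755 and 0% in the other 7. In that list 5 genes had an unadjusted p under 0.05, and the 3 other models called none. No gene passed with diffSpliceDGE among 34 SR proteins and hnRNPs (3 at an unadjusted p under 0.05), 20 apoptosis genes (2), 37 B cell transcription factors (6), 23 genes of G protein signaling (1), 33 of the actin cytoskeleton (5), 25 of antigen presentation (3) and 37 of adhesion and surface receptors (7). In these 7 lists limma called no gene. DESeq2 called 1 gene each in G protein signaling, actin cytoskeleton and antigen presentation and 4 in adhesion, of which the spread per transcript called Cd86. The median over the genes of a list of the largest difference in share was 3.28 to 7.11 points for the 12 lists, beside 6.71 points for all tested genes.

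Over all selected genes, transcript classes were compared with an exact permutation test (84 divisions of the libraries, smallest possible p = 0.0119, two-sided, 5 measures). Retained-intron transcripts held 7.99%, 9.21% and 7.49% of the summed TPM in Z2754, Z2755 and Z2785 and 6.83% to 7.74% in the leukemias. The mean was 8.23% ± 0.883 in wildtype and 7.28% ± 0.328 in leukemia (exact permutation p = 0.0238, adjusted over 5 measures p = 0.0595), and the libraries overlapped. Without Z2755, the library of the other lane, the difference was -0.465 points in place of -0.954 (exact permutation p = 0.107), and with each gene counted once it was -0.19 points (exact permutation p = 0.762). Transcripts open to nonsense-mediated decay held 3.20% ± 0.171 and 3.02% ± 0.233 (exact permutation p = 0.333, adjusted p = 0.416).

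Protein-coding transcripts held 84.07%, 83.21% and 84.86% of the TPM in Z2754, Z2755 and Z2785 and 84.02% to 86.41% in the leukemias (exact permutation p = 0.0357, adjusted p = 0.0595). The effective number of transcripts per gene, which is 1 where a single form takes all of the TPM, had a median over genes of 2.374, 2.437 and 2.33 in Z2754, Z2755 and Z2785 and of 2.253 to 2.319 in the leukemias. All leukemias were below all wildtype libraries (difference -0.0857; exact permutation p = 0.0119, the smallest possible; adjusted p = 0.0595). The abundance-weighted transcript length, relative to the mean of the gene, differed by 0.0007 (exact permutation p = 0.667). None of the 5 measures passed after adjustment.

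**Figure D4:**
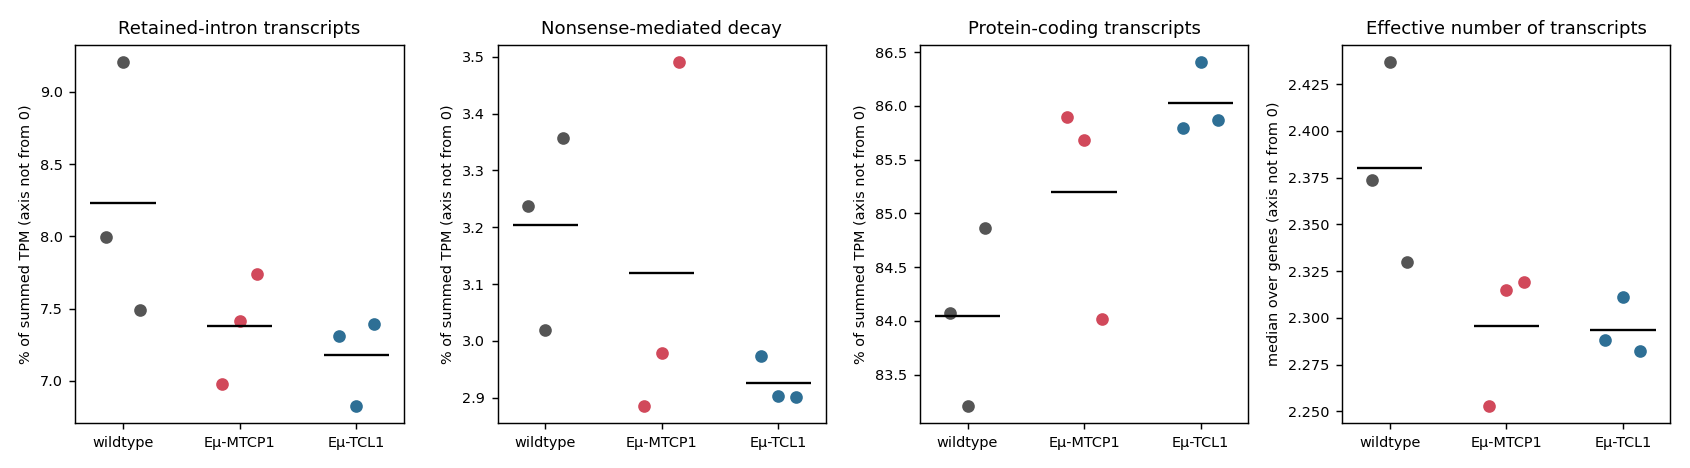
Share of the summed TPM held by retained-intron, nonsense-mediated decay and protein-coding transcripts (y axes, %) and median effective number of transcripts per gene (y axis, number), with 1 point per library and a line at the group mean; the y axes do not start at 0. Only in the last panel do all 6 leukemia points (2.253 to 2.319) lie on 1 side of the 3 wildtype points (2.33 to 2.437).

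Each model was also set against the same 3 wildtype libraries, so that these comparisons share their controls. In Eµ-MTCP1 35 transcripts (0.184%) passed and in Eµ-TCL1 32 (0.169%), and 17 passed in both. Pik3r1-201 rose by 33.0 points in Eµ-MTCP1 (edgeR adjusted p = 3.24e-06) and by 30.6 points in Eµ-TCL1 (edgeR adjusted p = 2.05e-05). Dnajc7-203 rose by 42.1 and 42.8 points and Sirt2-209 by 38.4 and 32.9 points. Auh-201 fell by 35.5 points in Eµ-MTCP1 (edgeR adjusted p = 0.0053), and its difference in Eµ-TCL1 was -27.4 points (edgeR adjusted p = 0.7). Cblb-206 had a difference of -16.6 points in Eµ-MTCP1 (edgeR adjusted p = 1) and -17.7 in Eµ-TCL1 (edgeR adjusted p = 0.0597).

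Compared directly, the models differed in 17 transcripts (0.0895%), of which 11 (0.0579%) had the higher share in Eµ-TCL1. The largest difference was in Fam168a. Fam168a-207, an annotated retained-intron transcript of 320 bases at the 5′ end of the gene (chr7:100706684-100714224, plus strand), had 81.4%, 84.6% and 85.2% in Z2551, Z2606 and Z2641 and was listed at 0% in all 6 other libraries (edgeR adjusted p = 1.67e-05). Summed over its transcripts, Fam168a had a TPM of 4.47 ± 0.875 in wildtype, 6.49 ± 1.3 in Eµ-TCL1 and 378 ± 59.1 in Eµ-MTCP1. In reads the difference was smaller, at 216 to 292 in wildtype, 399 to 407 in Eµ-TCL1 and 1057 to 1531 in Eµ-MTCP1. TPM is scaled for transcript length, and Fam168a-207 has 320 bases, against 6609 of Fam168a-201. Fam168a is the gene that holds the transgene in founder line Z36.

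Phkb, the β subunit of phosphorylase kinase, showed a like pattern in the other model. Phkb-207, a processed transcript of 1950 bases from the 3′ part of the gene, had 90.5%, 80.7% and 82.5% in B4376, B4437 and C1594, 6.43%, 14.6% and 0% in wildtype and 0%, 0% and 6.81% in Eµ-MTCP1. The models differed by 82.3 points (edgeR adjusted p = 0.0152), and the summed TPM of Phkb was 14.1 ± 5.42 in wildtype, 41.0 ± 25.3 in Eµ-TCL1 and 9.39 ± 1.58 in Eµ-MTCP1. The call for Phkb-207 was lost without Z2551, Z2606, B4376 or C1594, where the difference was 79.3 to 83.4 points, and with limma at a pseudocount of 0.1. Acer3-204, Tmem110-204 and Map3k7-201 were listed at 0% in all 3 Eµ-MTCP1 libraries and had 30% to 67.3%, 17.6% to 61.1% and 19.1% to 44.3% in Eµ-TCL1. Wildtype libraries lay at 25.4% to 52.9%, 16.9% to 23.9% and 2.26% to 16.8%. Among the 9 fits without 1 library Acer3-204 passed in 7, Tmem110-204 in 4 and Map3k7-201 in 8. With a spread per transcript 1 transcript passed in this comparison, and none of these 5.

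**Figure D5:**
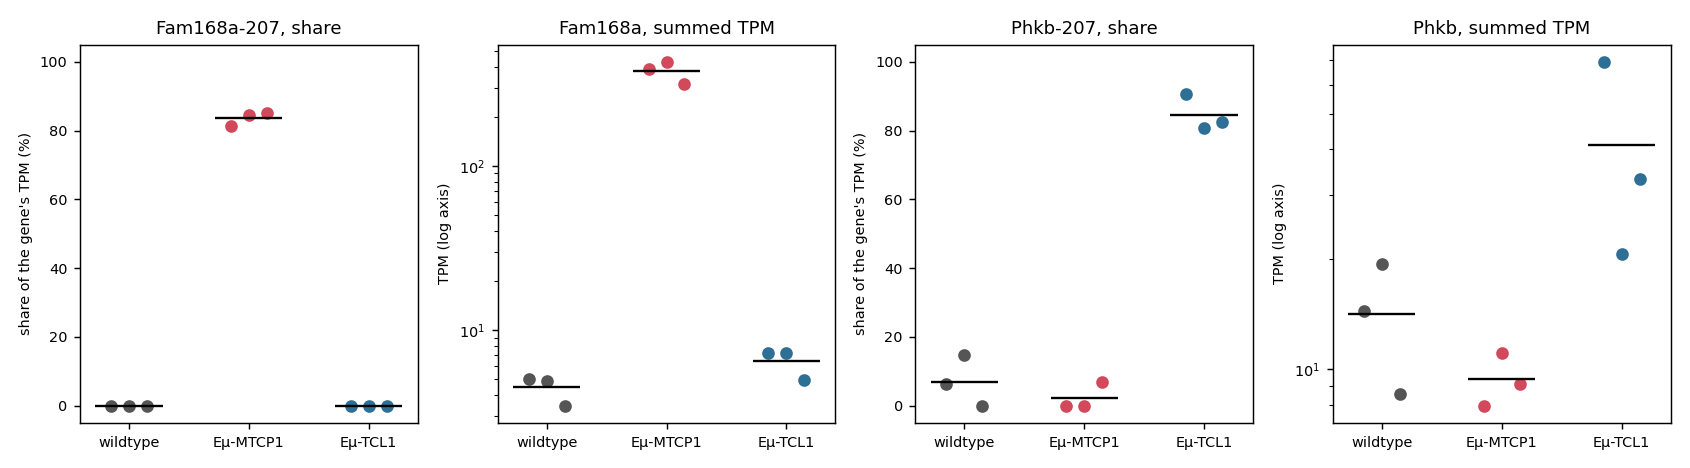
Share of Fam168a-207 and Phkb-207 in the TPM of their gene (%) and the summed TPM of both genes (log axis), with 1 point per library and a line at the group mean. Fam168a-207 is at 81.4% to 85.2% in Eµ-MTCP1 and 0% elsewhere, and Phkb-207 at 80.7% to 90.5% in Eµ-TCL1 and at most 14.6% elsewhere.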

How the data were processed

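RNA-sequencing of splenic B cells gave 9 libraries from 9 mice, grouped by the transgene label of each sample. The authors made the deposited estimated counts and TPM values per transcript with Salmon 1.0.0 on 2 mouse references. The methods name SMARTer and Nextera XT as well as TruSeq stranded kits, and a GENCODE release other than M21 (GRCm38), which was used here. By identifier, 99.73% to 99.804% of reads on the standard reference were joined to M21 genes, and 884 transcripts were not. Gene-level tables of the authors hold counts, normalized values, fold changes and p-values and were not used, except a header for lanes. Reads were not analyzed.

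Estimated counts were rounded and fitted with edgeR 4.0.16 (3 groups, TMM, diffSpliceDGE, Benjamini-Hochberg adjustment over all 18991 transcripts). Alternatives were limma 3.58.1 on log2 ratios with a pseudocount of 0.5 or 0.1 TPM, DESeq2 1.42.0, other filters and scaling, the coding-sequence reference, and leaving out each library. A fit with a spread per transcript, and 1 without the Sp100 cluster, were chosen after seeing the data. The fits with diffSpliceDGE, limma and the spread per transcript were tested on simulated counts, and DESeq2 was not. There the share of false calls among those of diffSpliceDGE was above the 0.05 threshold and larger than with limma and the spread per transcript.

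Named were the 20 genes with the largest difference among those with 200 reads in every library and groups that lay apart, up to 5 retained-intron or decay transcripts per direction, the B cell isoform genes, up to 4 called members of each other list and 5 transcripts from the direct comparison. Transcripts called by at least 3 models and genes with exchanged leading transcripts were added after their values were seen. The genes and lists were chosen with earlier results of these data known. Estimated reads of overlapping transcripts are not independent counts, and no interval covers that error. The value of 1 gene is not reported here.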

Additional observations from a re-analysis of the deposited data

Results flagged for a closer look

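In 8 of 84 values checked, the highest or lowest of the 6 leukemia libraries stood apart from the other 5 by a Dixon test, where chance alone gives about 1 in 20. Z2641 was the highest in the share of transcripts open to nonsense-mediated decay (3.491%), the lowest in the share of protein-coding transcripts (84.02%) and the lowest in relative transcript length (0.9975), and was the library with Cblb-206 at 3.15%. It also had the highest summed TPM of erythroid markers (614, against 50.9 to 190 in the other leukemias) and of myeloid markers (3226, against 150 to 1666). B4376 had the highest share of C130026I21Rik-204 (38.6%) and of Cd37-203 (16.6%) and the lowest of Ptprc-207 (35.6%), and the highest sums of T cell (113) and NK cell markers (26.9) among the leukemias. The part of these markers in the values above was not tested. Z2551 was the library with Fry-203 at 4.79%.

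The difference between Eµ-TCL1 and Eµ-MTCP1 itself passed the test (edgeR) in 17 transcripts. The 5 with the largest difference in share were Fam168a-207 (-83.7 points), Phkb-207 (82.3 points), Acer3-204 (44.8 points), Tmem110-204 (34.9 points) and Map3k7-201 (32.4 points). Acer3-204, Tmem110-204 and Map3k7-201 were not called by limma.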

How the results depend on the processing

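The number of transcripts that passed in leukemia (47) was 19 with a difference of at least 20 points, 18 of 6644 tested on the coding-sequence reference, 23 with a spread per transcript, 176 with DESeq2, 42 without the Sp100 cluster and 35 to 64 without 1 library. For Eµ-MTCP1 (35) it was 16 with 20 points, 9 on the coding-sequence reference and 37 to 57 without 1 library, with 53 without Z2785 and 57 without Z2606. For Eµ-TCL1 (32) it was 16 with 20 points, 16 with limma at a pseudocount of 0.1, 9 on the coding-sequence reference, 19 with a spread per transcript and 24 to 40 without 1 library. For Eµ-TCL1 against Eµ-MTCP1 (17) it was 11 with 20 points, 9 with at least 200 reads per gene, 3 with limma at either pseudocount, 3 on the coding-sequence reference, 1 with a spread per transcript and 15 to 37 without 1 library, with 37 without Z2551, 32 without Z2606 and 26 without Z2641. The stricter difference, the higher gene minimum and the smaller reference test or call fewer transcripts by construction, and the cause of the other changes was not tested.

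Of the 29 named transcripts called in leukemia, 29 were called with RLE size factors, 17 and 16 with limma, 25 with DESeq2 and 9 with a spread per transcript. Where fewer had a value, 23 of 23 were called with at least 200 reads per gene, 4 of 11 on the coding-sequence reference, 20 of 28 without Z2754 or Z2755 and 20 of 26 without Z2785. Without 1 leukemia library 20 to 23 of 29 were called, and none was reversed in any of these settings. For the measures per library, counting each gene once gave -0.19 points for retained introns and 0.389 points for protein-coding transcripts, which did not pass. Reads in place of TPM gave 0.203 points for nonsense-mediated decay, turning its direction, 0.427 points for protein-coding transcripts, -0.032 for the effective number and -0.00047 for length, also turned. Without 1 library the differences were -1.32 to -0.465 for retained introns, -0.276 to -0.106 for nonsense-mediated decay (unadjusted exact permutation p under 0.05 only without Z2641), 1.15 to 1.97 for protein-coding transcripts, -0.111 to -0.0575 for the effective number and -0.00018 to 0.00134 for length. In these comparisons the protein-coding difference kept an unadjusted exact permutation p under 0.05 only without Z2641, and that of length turned without Z2755. Without a wildtype library the smallest possible p was 0.0357. No paired analysis was possible because the 9 libraries came from 9 separate mice and no pairing between the groups is given. Transcripts with few reads, such as Coro2a-204 in wildtype, limit the precision of shares, and the spread includes the error of the read assignment.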

Other observations

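Further genes exchanged their leading transcript between the groups without passing the test by diffSpliceDGE. Rfxank, a subunit of the factor that drives MHC class II genes, had Rfxank-203 in front in wildtype (56.5% ± 4.18) and Rfxank-201 in leukemia (58.0% ± 6.68). In B4437 the lead was narrow, with 49.9% for Rfxank-201 and 49.6% for Rfxank-203. Oxr1, which protects against oxidative damage, had Oxr1-206 in front in wildtype (48.8% ± 5.36) and Oxr1-205 in leukemia (49.7% ± 5.63). Zfp106, an RNA-binding zinc finger protein, had Zfp106-203 in front in wildtype (44.2% ± 6.95) and Zfp106-201 in leukemia (47.2% ± 7.51). In Z2641 Zfp106-201 had 37.0% and Zfp106-203 36.7%, and the shares of Zfp106-203 overlapped between the groups. The antisense gene Gm47071 had Gm47071-201 at 100%, 67.7% and 100% in Z2754, Z2755 and Z2785, and Gm47071-202 at 72.5% to 100% in the leukemias.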
